A study of Homo sapiens with 3 samples.

Results

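The baseline transcriptome of Molm13 cells was read from the library of vehicle-treated cells alone. Molm13 is a human acute myeloid leukemia (AML) cell line, originally grown from peripheral blood, that carries an internal tandem duplication of the receptor tyrosine kinase gene FLT3 (FLT3-ITD) and is known to hold a fusion of KMT2A (MLL) with MLLT3 (AF9). The cells were grown in RPMI medium with 10% FBS, labelled as asynchronous, and exposed to DMSO, the vehicle control, for 6 h. The series held 3 libraries of Molm13 cells, and the 2 treated with pyrvinium at 50 nM and 100 nM for the same 6 h were left out. The DMSO group was 1 library of 1 cell line, so no level has a replicate, no test was possible, and every interval given covers counting error only.

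The library held 23165771 counted reads over 25702 genes. A gene was kept when it had 10 or more counts, which 12445 genes did, and these held 99.96% of all counts. Another 2910 genes had 1 to 9 counts and 10347 had 0 counts. Levels are given as TPM, the count divided by the gene length and scaled so that the kept genes sum to 1000000, so that genes of unequal length can be compared. At the median length of a kept gene, 2795 bases, 10 counts corresponded to 0.300 TPM. The median level of a kept gene was 18.9 TPM. There were 11473 kept genes at 1 TPM or more, 8047 at 10 TPM or more, 1636 at 100 TPM or more and 123 at 1000 TPM or more. Of 18933 protein-coding genes, 58.1% were kept, 40.0% reached 10 TPM and 8.35% reached 100 TPM. The counts of list members given below are to be read beside these shares.

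In AML with a KMT2A fusion, the fusion protein is known to hold the HOXA cluster and MEIS1 in an active state that normally ends as blood progenitors mature, and HOXA9 and MEIS1 proteins bind DNA together. FLT3 is the receptor of a growth factor of early blood cells, and the tandem duplication makes it signal without its ligand. SPI1 (PU.1) is the transcription factor that commits cells to the myeloid lineage, CD33 is a sugar-binding surface receptor of myeloid cells, and MPO is the peroxidase of the granules of neutrophil precursors and monocytes. The gene counts cannot show the duplication or the fusion, since reads of either allele add to the same gene.

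All 6 of these marker genes were kept, and 5 of them lay above the median kept gene. SPI1 had the highest level of the 6, 178 TPM (95% interval 171 to 184, 2981 counts), above 93.2% of kept genes. FLT3 followed with 138 TPM (134 to 141, 6304 counts), above 90.7% of kept genes. CD33 stood at 105 TPM (100 to 110, 2015 counts). The differences between these 3 were larger than counting error, with FLT3 at 1.31 times CD33 per length (1.25 to 1.38) and at 0.775 times SPI1 (0.742 to 0.810). Without length scaling FLT3 lay above SPI1, and with the longest annotated transcript as length CD33 lay below HOXA9, so the order rests on the lengths in the deposited table. HOXA9 had 74.1 TPM (70.8 to 77.6, 1817 counts) and MEIS1 had 35.5 TPM (33.6 to 37.5, 1346 counts). MPO was the exception, with 7.60 TPM (6.75 to 8.52, 291 counts), and 30.3% of kept genes were lower. The levels of these markers describe the library and are no test of its label, and the defining granule enzyme MPO was below the median kept gene. In hg19, FLT3 lies on the minus strand at chr13:28577411-28674729, HOXA9 on the minus strand at chr7:27202057-27205149 and MEIS1 on the plus strand at chr2:66662532-66799891. SPI1 lies on the minus strand at chr11:47376409-47400127, MPO on the minus strand at chr17:56347217-56358296 and CD33 on the plus strand at chr19:51728335-51743274.

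**Figure D1:**
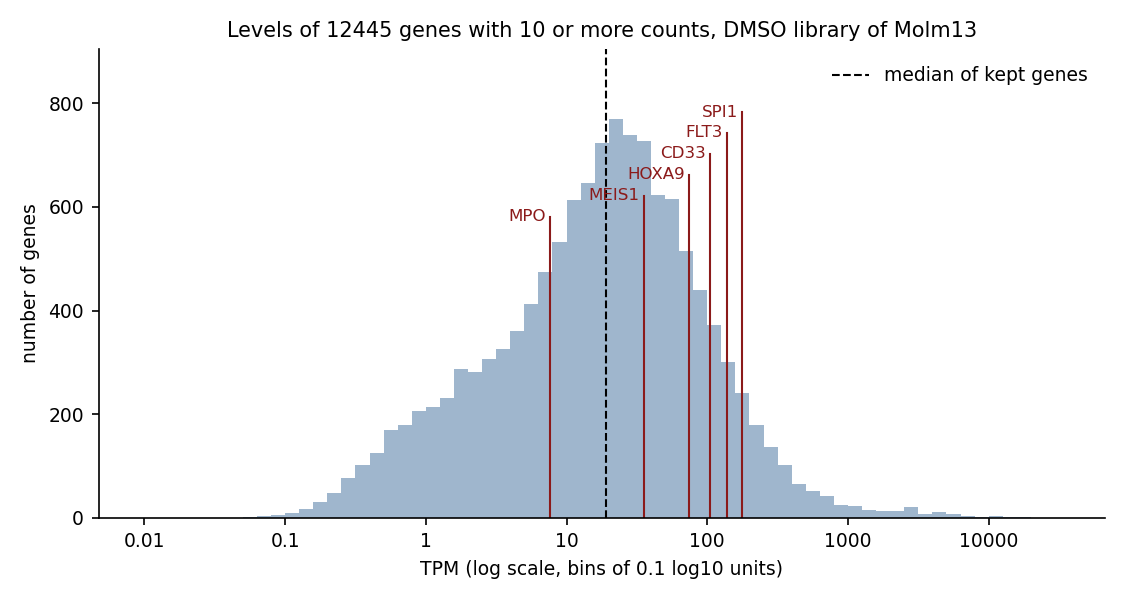
Number of genes (vertical axis) by level in TPM (horizontal axis, log scale, bins of 0.1 log10 units) for the 12445 genes with 10 or more counts in the DMSO library; the dashed line is the median of 18.9 TPM and the red lines mark the 6 AML markers. MPO at 7.60 TPM lies left of the median, and MEIS1, HOXA9, CD33, FLT3 and SPI1 lie right of it.

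The stretches just before the transcription start of 4 of these genes and of RNASE2, a granule gene described below, are shown because myeloid genes of high level in this library had start regions of very unequal base composition. They are the 250 bases before the RefSeq start, 5′ to 3′ on the gene's strand, with coordinates of GRCh37. Capitals mark the motifs searched, on either strand. The TATA box, read as TATAAA, positions the transcription machinery. The CCAAT box is bound by the factor NF-Y. The GC box, read as GGGCGG, is bound by SP1. The core of sites for ETS-family factors was read as CCGGAAG. The core preferred by SPI1, itself an ETS factor, was read as GAGGAAG. The E-box bound by MYC with MAX was read as CACGTG.
HOXA9, chr7:27205157-27205406, minus strand: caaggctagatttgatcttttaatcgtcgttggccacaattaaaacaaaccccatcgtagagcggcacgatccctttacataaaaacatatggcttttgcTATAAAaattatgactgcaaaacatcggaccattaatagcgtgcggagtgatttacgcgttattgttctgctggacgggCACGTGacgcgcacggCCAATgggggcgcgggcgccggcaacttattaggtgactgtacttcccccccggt
MEIS1, chr2:66662007-66662256, plus strand: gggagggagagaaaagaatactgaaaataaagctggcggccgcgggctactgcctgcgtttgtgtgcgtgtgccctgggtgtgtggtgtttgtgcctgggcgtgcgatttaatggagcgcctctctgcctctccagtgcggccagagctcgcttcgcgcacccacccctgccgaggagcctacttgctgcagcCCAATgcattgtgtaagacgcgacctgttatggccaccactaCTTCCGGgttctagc
FLT3, chr13:28674714-28674963, minus strand: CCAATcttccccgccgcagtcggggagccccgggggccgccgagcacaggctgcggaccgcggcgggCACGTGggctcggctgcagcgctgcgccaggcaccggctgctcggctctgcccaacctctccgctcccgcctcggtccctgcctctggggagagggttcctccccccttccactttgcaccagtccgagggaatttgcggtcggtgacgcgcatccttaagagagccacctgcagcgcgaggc
CD33, chr19:51728086-51728335, plus strand: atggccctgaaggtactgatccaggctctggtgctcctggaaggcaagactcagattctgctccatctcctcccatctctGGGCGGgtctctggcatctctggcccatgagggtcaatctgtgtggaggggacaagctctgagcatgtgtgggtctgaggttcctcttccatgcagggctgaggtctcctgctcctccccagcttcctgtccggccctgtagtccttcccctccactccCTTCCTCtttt
RNASE2, chr14:21423396-21423645, plus strand: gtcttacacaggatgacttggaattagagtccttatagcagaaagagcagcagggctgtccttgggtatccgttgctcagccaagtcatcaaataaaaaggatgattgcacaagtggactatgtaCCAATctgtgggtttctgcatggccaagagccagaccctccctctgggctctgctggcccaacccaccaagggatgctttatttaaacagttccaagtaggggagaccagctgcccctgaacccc
The HOXA9 stretch ended just before the gene as the deposited table draws it, the MEIS1 stretch lay further upstream, and the last bases of the FLT3 and RNASE2 stretches and the last base of the CD33 stretch lay inside those genes. In the RefSeq window of 300 bases, which adds 50 bases after the start, HOXA9 held 22 CG dinucleotides, MEIS1 held 18 and FLT3 held 34, whereas CD33 and RNASE2 held 3 each. The E-box stood in the HOXA9 and FLT3 stretches, and the TATA box before HOXA9 alone of the 5. The ETS core stood before MEIS1 and the SPI1 core before CD33, both as the reverse complement. A match of these letters is a description of the sequence and not a bound site.

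Across the genome, base composition of the start region differed between genes with few or no counts and those above 1 TPM. Above 1 TPM the median number of CG dinucleotides was nearly flat. A RefSeq window was matched to 15145 of 18920 protein-coding nuclear genes. Among the 4674 with 0 counts the median window held 9 CG dinucleotides, against 15 at 1 to 9 counts and 22 in kept genes under 1 TPM. The median was 26 at 1 to 10 TPM, 27 at 10 to 100 TPM and 27 in the 1288 genes at 100 TPM or more. The TATA box was most frequent in genes with 0 counts, where TATAAA on either strand stood in 16.9% of windows. Its share was 7.06% at 1 to 10 TPM, 4.31% at 10 to 100 TPM and 6.75% at 100 TPM or more, against 9.48% of all windows. CCGGAAG stood in 4.43% of windows at 0 counts, 15.0% at 1 to 10 TPM and 26.0% at 100 TPM or more, against 14.5% of all windows. The SPI1 core GAGGAAG did not follow level, with 14.0% at 0 counts, 14.2% at 100 TPM or more and 14.3% of all windows. GGGCGG, the GC box, stood in 39.8% at 0 counts, 69.7% at 1 to 10 TPM and 70.2% at 100 TPM or more. CACGTG stood in 5.86%, 8.94% and 12.3% of the same windows. CCAAT differed little, with 36.0% at 0 counts and 39.7% at 100 TPM or more. The ETS core, the GC box and the E-box each hold a CG dinucleotide, so their shares are not independent of base composition. TATAAA holds only A and T, so its share is not independent of base composition either.

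HOX genes encode the transcription factors that set position along the body axis, and in blood cells the posterior genes of the HOXA cluster drive self-renewal of progenitors. Transcription of HOX genes in Molm13 cells was limited to HOXA. Of 39 HOX genes, 9 were kept, all of them among the 11 genes of HOXA. Each of the 28 genes of HOXB, HOXC and HOXD had 0 counts, and a count of 0, read as at most 3 counts, allowed these genes no more than 0.0696 to 0.310 TPM depending on length. Within HOXA, HOXA9 held 63.8% of the summed TPM, HOXA10 17.4% and HOXA11 9.88%. HOXA9 was 3.66 times HOXA10 per length (3.36 to 3.99) and 6.46 times HOXA11 (5.76 to 7.25). Without length scaling HOXA9 was 2.37 times HOXA10. HOXA10 stood at 20.2 TPM (768 counts) and HOXA11 at 11.5 TPM (363 counts).

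The remaining HOXA genes were low. HOXA7 had 4.45 TPM (107 counts), but 74.7% of its exonic length is overlapped on the opposite strand by HOXA-AS3, and since no source tells if reads were assigned by strand, this level is uncertain. HOXA13 with 1.77 TPM (1.33 to 2.31) and HOXA5 with 1.76 TPM (1.17 to 2.55) could not be told apart. HOXA4 had 0.486 TPM from 10 counts and HOXA3 0.338 TPM from 14 counts. HOXA6 had 6 counts and HOXA2 had 0. Levels were lower on both sides of HOXA9 along the cluster. Of the 29 HOX genes with 0 counts, only 12 had a RefSeq window, and these held a median of 21 CG dinucleotides. The 7 kept HOX genes with a window held a median of 22. The HOX genes without a window are not described by these values.

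The proteins that bind DNA with HOXA9 differed among themselves. PBX3, a TALE-class cofactor, had 89.6 TPM (3317 counts) and was the highest of the 9 cofactors listed. MEIS1 came next, and HOXA9 exceeded it 2.09-fold per length (1.94 to 2.24). MEIS2 had 12.5 TPM, PKNOX1 11.0 TPM and PBX2 3.32 TPM. MEIS3 and PKNOX2 had 0 counts and PBX4 had 8. PBX3 and MEIS1 thus held most of the cofactor transcripts.

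All 12 genes listed for KMT2A and the proteins it works with were kept, and none reached 100 TPM. KMT2A itself, a histone H3 lysine methyltransferase, was low at 6.95 TPM (6.56 to 7.34), and MLLT3, the partner in the fusion of this line, had 5.88 TPM (5.16 to 6.67). Reads of the fusion transcript are split between these 2 genes and cannot be separated from those of the intact alleles. MLLT1 (ENL), a reader of acetylated histones in the elongation complex, had 73.8 TPM, far above its paralog MLLT3. DOT1L, the histone H3 lysine 79 methyltransferase recruited by KMT2A fusions, had 59.9 TPM. MEN1 (menin) and PSIP1 (LEDGF), which tether KMT2A to chromatin, had 36.6 TPM and 43.5 TPM. The elongation kinase CDK9 had 40.2 TPM, its cyclin CCNT1 30.2 TPM, and AFF1 48.9 TPM against 6.89 TPM for AFF4.

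**Figure D2:**
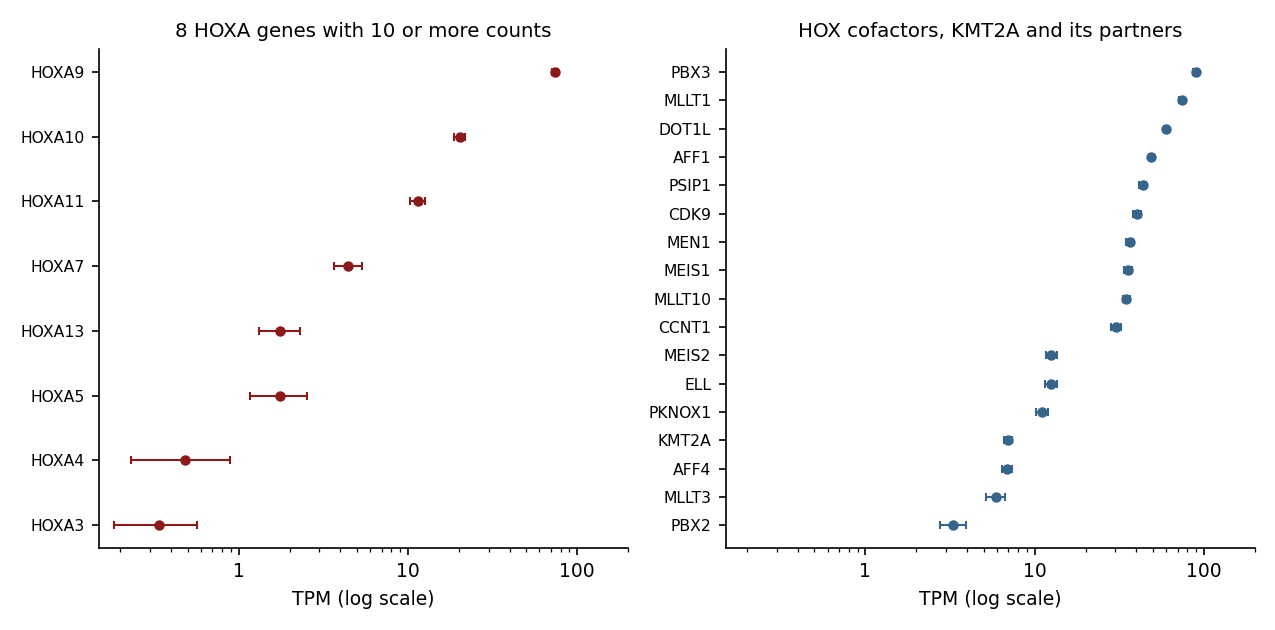
Levels in TPM (horizontal axes, log scale) of 8 of the 9 HOXA genes with 10 or more counts (left) and of 17 HOX cofactors, KMT2A and partner genes with 10 or more counts (right); points are the level in the DMSO library and bars the 95% Poisson interval of the count. HOXA9 at 74.1 TPM stands clear of HOXA10 at 20.2 TPM, and PBX3 at 89.6 TPM leads the right panel.

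Transcription factors of blood lineages were next compared. Of 52 listed, 37 were kept, 24 reached 10 TPM and 7 reached 100 TPM. Over all protein-coding genes these shares were 58.1% kept, 40.0% at 10 TPM and 8.35% at 100 TPM. IRF8, which directs granulocyte-monocyte progenitors toward monocytes and dendritic cells, was the highest at 498 TPM (490 to 506, 15787 counts), above 98.1% of kept genes. CEBPA, needed for the step to granulocyte-monocyte progenitors, had 246 TPM (240 to 251). MYB, a factor of proliferating progenitors, had 182 TPM, next to SPI1. ELF1, an ETS factor, had 145 TPM, LMO2, the bridging subunit of the stem cell complexes, had 136 TPM, and TCF3, an E protein, had 111 TPM. With SPI1 these were the 7 factors at 100 TPM or more.

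Factors of the granulocyte branch and later monocyte steps were uneven. GFI1, a repressor that favors granulocytes, had 86.4 TPM, whereas its paralog GFI1B had 0 counts. RUNX1 had 51.7 TPM, 4.32 times RUNX2 per length (4.01 to 4.65), and its partner CBFB had 73.1 TPM. Among the C/EBP factors CEBPA held 64.8% of the summed TPM, CEBPG followed with 71.7 TPM and CEBPD with 50.0 TPM. CEBPB, which rises with monocyte and emergency granulocyte output, had 10.8 TPM, and CEBPE, needed for secondary granules, had 1.05 TPM from 15 counts. SPI1 exceeded its relative SPIB 8.13-fold per length (7.31 to 9.07), or 21.5-fold with the longest transcript as length. KLF4 had 2.75 TPM and EGR2 0.640 TPM, while MAF, a factor of macrophages, had 0 counts. ID2 made up 91.8% of the ID genes.

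Several factors of other lineages had 0 counts, whereas others were kept, some of them at low levels. GATA1, KLF1 and TAL1 of the erythroid and megakaryocyte branch, PAX5 and EBF1 of B cells, TCF7 of T cells, and ERG and IRF4 each had 0 counts. For GATA1 a count of 0 allowed at most 0.170 TPM and for PAX5 0.0690 TPM. GATA2, a stem cell and mast cell factor, had 2.39 TPM (107 counts), and GATA3 0.984 TPM (36 counts). IKZF1, shared by lymphoid and myeloid cells, had 87.7 TPM. FLI1, a factor of megakaryocytes and stem cells, had 43.3 TPM, BCL11A, a factor of B cells and dendritic cells, 16.0 TPM, NFE2, a factor of the erythroid and megakaryocyte branch, 8.19 TPM, and RUNX3, a factor of T cells, 7.13 TPM.

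Genes of stem and progenitor cells were nearly silent. Only GATA2 and HLF (2.37 TPM, 158 counts) of 13 were kept, and 9 had 0 counts. CD34, the surface antigen used to purify progenitors, had 0 counts, which allowed at most 0.0896 TPM. PROM1 (CD133), THY1, MECOM, SPINK2 and HOPX also had 0 counts. KIT, the stem cell factor receptor and a close relative of FLT3, had 3 counts. CD34 and KIT were thus at or near 0 in cells with HOXA9 at 74.1 TPM and MYB at 182 TPM.

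Granule proteins of the primary (azurophil) set were kept more often than those of the secondary and tertiary granules. Not all of the primary set were kept. Of 20 listed, 13 (65%) were kept and 5 (25%) reached 100 TPM, against 58.1% and 8.35% of protein-coding genes. SRGN (serglycin), the proteoglycan that packs granule enzymes, had 1663 TPM, which was 53.8% of the summed TPM of the list. AZU1 and RNASE2, an antimicrobial serine protease homolog and an eosinophil-type ribonuclease, had 230 TPM each. PRSS57, another azurophil serine protease, had 183 TPM, PRTN3 (proteinase 3) had 92.5 TPM (1103 counts) and CTSG (cathepsin G) 77.0 TPM (848 counts). ELANE (neutrophil elastase) had 20.4 TPM (225 counts), lower than its cluster neighbors AZU1 and PRTN3, and MPO was lower still. The protease inhibitor SERPINB1 had 84.3 TPM and CST7 61.6 TPM.

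LTF, CAMP, LCN2, MMP8, MMP9 and CEACAM8, of the secondary and tertiary granules, had 0 to 3 counts. Of the azurophil proteins, DEFA4 had 0 counts, and BPI had 14 counts (0.637 TPM). LYZ (lysozyme), shared by granulocytes and monocytes, had 421 TPM (7607 counts), with 53.6% of its exonic length overlapped on the opposite strand by another listed gene, which leaves the level uncertain. In the RefSeq windows, the 12 granule genes with an entry held a median of 5.5 CG dinucleotides, against 22 over all windows, and 5 of these 12 genes were not kept. RNASE2, printed above, had a level of 230 TPM and a window of 3 CG dinucleotides.

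Monocyte and macrophage genes were split. Of 28 listed, 19 (67.9%) were kept and 9 (32.1%) reached 10 TPM, against 58.1% and 40.0% of protein-coding genes. Beside LYZ, the highest were MS4A6A with 79.9 TPM, the chemokine receptor CCR2 of classical monocytes with 66.9 TPM and the adaptor TYROBP (DAP12) with 66.0 TPM. CD68, a lysosomal protein, had 53.5 TPM, the protease CTSS 48.6 TPM and MS4A7 36.1 TPM. FCGR1A (CD64), the high-affinity IgG receptor, had 18.4 TPM and VCAN (versican) 11.9 TPM.

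Genes of mature monocytes were far lower. CD14, the co-receptor for lipopolysaccharide, had 2 counts and FCN1 and FCGR3A had 0. The calprotectin genes S100A8 and S100A9, among the most abundant transcripts of blood monocytes, had 4.32 TPM (21 counts) and 8.14 TPM (56 counts), and S100A12 had 3 counts. The macrophage receptors CD163 and MRC1 had 0 counts. CSF1R, the receptor of the macrophage growth factor, had 2.50 TPM. TYROBP was kept while FCER1G, a signaling adaptor of the same type, had 2 counts.

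Few marker genes of other cell types were kept, and NKG7 and PRG2 were above the median kept gene. The list of non-blood cells (collagens, keratins, CDH1, CDH5, ALB and others), the B cell list and the megakaryocyte list had no kept gene among 13, 12 and 10 members. EPOR with 9.17 TPM was the only kept gene of 16 erythroid genes, and HBB had 0 counts. PRG2, the major basic protein of eosinophils, had 21.2 TPM (217 counts) while EPX, CLC, CPA3 and HDC had 0 counts. TCF4 was the only kept gene of 8 dendritic cell genes, with 4.69 TPM. The T and NK cell list had 6 of 19 kept, led by NKG7, a cytotoxic granule membrane protein, with 39.7 TPM (391 counts). NCAM1 (CD56), which some AML cells carry, had 6.27 TPM, CD247 6.29 TPM and CD3D 2.94 TPM from 26 counts. CD3E, CD3G, CD2, LCK and ZAP70 had 0 counts.

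**Figure D3:**
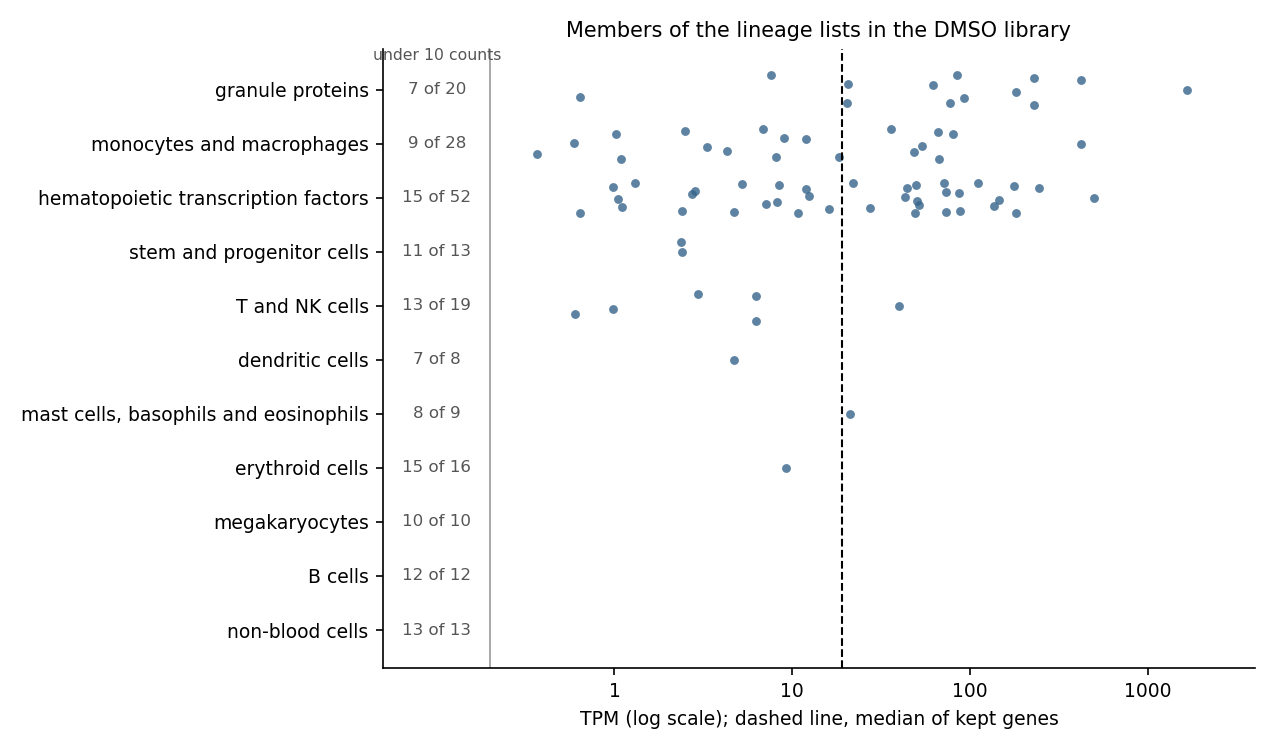
Level in TPM (horizontal axis, log scale) of each kept member of 11 lineage lists (vertical axis) in the DMSO library; the left column counts the members with fewer than 10 counts, and the dashed line is the median of kept genes, 18.9 TPM. Granule, monocyte and transcription factor lists reach over 100 TPM, while megakaryocyte, B cell and non-blood lists have no kept member.

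Oncogenes and tumor suppressors were examined next. Of 32 genes often mutated in AML, 31 were kept, with a median of 46.4 TPM, and KIT was the exception. NPM1, a nucleolar chaperone, had 1407 TPM. The cohesin subunit RAD21 had 568 TPM, with an opposite-strand overlap of 27.1% of its exonic length, and the splicing factors SRSF2, U2AF1 and SF3B1 had 357 TPM, 288 TPM and 278 TPM. The mitochondrial IDH2 had 198 TPM, 2.49 times the cytosolic IDH1 per length (2.37 to 2.63). The epigenetic regulators were lower: EZH2 had 93.8 TPM, ASXL1 25.3 TPM, TET2 4.75 TPM and DNMT3A, the de novo DNA methyltransferase, 2.06 TPM (1.73 to 2.43). WT1, often raised in AML, had 29.9 TPM.

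Among receptor tyrosine kinases FLT3 stood apart. Of 58 genes of this family, 28 had 0 counts, 18 were kept and 4 reached 10 TPM. After FLT3 at 138 TPM came RYK, a Wnt co-receptor with a kinase-like domain, with 25.4 TPM, EPHB4 with 21.0 TPM and the insulin receptor INSR with 13.6 TPM. FLT3 held 61.3% of the summed TPM of the kept members. The other members of the same class fell far short, with CSF1R at 2.50 TPM, KIT at 3 counts, PDGFRA at 2 counts and PDGFRB at 0.147 TPM from 10 counts. AXL, a kinase studied in resistance to FLT3 inhibitors, had 0.301 TPM from 17 counts. The ligand gene FLT3LG had 3.48 TPM (43 counts).

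Every one of 40 genes of FLT3 signaling was kept, with a median of 24.8 TPM against 18.9 TPM over all kept genes. Over all protein-coding genes, with those not kept set to 0, the median was 2.72 TPM. Of the 40 genes, 75% reached 10 TPM and 7.5% reached 100 TPM, against 40.0% and 8.35% of protein-coding genes. The adaptor GRB2 had 225 TPM, with 35.5% of its exonic length overlapped on the opposite strand. LYN, a SRC-family kinase, had 172 TPM, and FGR of the same family had 0.635 TPM. The phosphatases INPP5D (SHIP1) and PTPN11 (SHP2) had 107 TPM and 97.3 TPM. NRAS had 58.1 TPM and HRAS 26.1 TPM, a ratio of 2.22 that became 8.04 without length scaling and 3.60 with the longest transcript. Of the class I PI3K catalytic genes the leukocyte form PIK3CD led with 49.2 TPM, 1.56 times PIK3CB (1.46 to 1.66), while PIK3CA had 8.12 TPM. The ratio of PIK3CD to PIK3CB was 2.62 without length scaling and 3.03 with the longest transcript.

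STAT5, the transcription factor pair through which FLT3-ITD is known to signal, was present as STAT5B at 30.7 TPM and STAT5A at 21.2 TPM, a ratio of 1.45 (1.34 to 1.56). Its known target genes were not uniform. PIM3 had 52.9 TPM, PIM1 14.3 TPM and PIM2 5.60 TPM, so PIM3 made up 72.7% of the PIM kinases. CISH had 23.5 TPM, while the feedback inhibitors SOCS1, SOCS2 and SOCS3 had 5.66 TPM, 2.24 TPM and 1.75 TPM. Apart from these STAT5 targets, DUSP6, a phosphatase of MAP kinases, had 6.84 TPM.

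MYC, which drives growth and ribosome production, had 751 TPM (741 to 761, 21175 counts), above 98.7% of kept genes. Its relatives were low, with MYCL at 3.78 TPM and MYCN at 0 counts, and its partner MAX had 45.3 TPM. In the cell cycle genes CDK4 had 336 TPM and CDK6 45.8 TPM, and per length CDK4 was 7.34 times CDK6 (7.08 to 7.61) although CDK6 had more counts. CCND3 with 154 TPM made up 79.2% of the D cyclins, though its ratio to CCND2 of 3.99 fell to 1.48 without length scaling, and CCND1 had 1.78 TPM. CCNE2 exceeded CCNE1 2.62-fold per length (2.43 to 2.83), with 94.4 TPM and 36.0 TPM. Of the inhibitors of CDK4 and CDK6, CDKN2A and CDKN2B, neighbors on chromosome 9, had 0 counts, which allowed at most 0.134 TPM and 0.0632 TPM, whereas CDKN2C had 155 TPM. The CDK inhibitor gene CDKN1A had 66.3 TPM, and the ubiquitin ligase gene MDM2 25.7 TPM.

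In the BCL2 family, which sets the threshold of mitochondrial cell death, 14 of 16 genes were kept. MCL1 was the leading anti-apoptotic member with 125 TPM and 63.7% of the summed TPM of the 5. BCL2, the target of venetoclax, had 49.5 TPM, so MCL1 exceeded it 2.52-fold per length (2.42 to 2.62) and 1.52-fold without length scaling. BCL2L1 had 10.5 TPM and BCL2A1 2.05 TPM from 23 counts. The effectors BAX and BAK1 had 180 TPM and 58.5 TPM. Among the BH3-only genes BID led with 68.8 TPM, PMAIP1 (NOXA) had 28.7 TPM, BCL2L11 (BIM) 19.6 TPM and BBC3 (PUMA) 16.5 TPM.

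Of 49 surface antigens, 32 (65.3%) were kept, 22 (44.9%) reached 10 TPM and 6 (12.2%) reached 100 TPM. For protein-coding genes these shares were 58.1%, 40.0% and 8.35%. ITGAL (CD11a) was the highest with 367 TPM (22811 counts), and its partner chain ITGB2 (CD18) had 114 TPM. ITGAL made up 99.6% of 3 alpha chains that pair with ITGB2, since ITGAM (CD11b) had 1.03 TPM and ITGAX (CD11c) 0.596 TPM, both raised in mature myeloid cells. The transferrin receptor TFRC, high in dividing cells, had 223 TPM. ITGA4 (CD49d) had 138 TPM, the level of FLT3. CD33, a target of antibody drugs, was followed by CD70 with 92.7 TPM (87.0 to 98.6), while CD27, the receptor of CD70, had 1 count. SPN (CD43) had 78.9 TPM and CXCR4, the homing receptor for marrow, 65.5 TPM.

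Other antigens studied as AML targets were spread over a wide range. CD93 had 42.9 TPM, PTPRC (CD45) 42.8 TPM and CD47 30.0 TPM. IL3RA (CD123) had 16.6 TPM (678 counts), a gene the table places on both X and Y in the shared region. Its length may therefore count both copies, which would make its level too low, as for any other gene placed on both. LILRB4 had 14.7 TPM, IL1RAP 8.08 TPM and CLEC12A (CLL-1) 1.40 TPM (0.917 to 2.06) from 26 counts. CD44 had 0.337 TPM from 23 counts, HAVCR2 (TIM-3) 0.832 TPM, and CD38 9 counts. ANPEP (CD13), usual on myeloid cells, had 0 counts, as did CD96 and CD200, while CD7 and CD274 had 2 counts each. CD4, found on monocytes, had 16.5 TPM.

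Of 24 cytokine receptors, 21 were kept. After FLT3, the interferon gamma receptor chain IFNGR1 had 113 TPM and its partner IFNGR2 5.52 TPM. The receptors of tumor necrosis factor, TNFRSF1A and TNFRSF1B, had 72.8 TPM and 57.1 TPM. IL6R had 45.7 TPM, whereas IL6ST (gp130), the chain that signals for it, had 0.899 TPM. CSF3R, the receptor of G-CSF, had 26.2 TPM, and the GM-CSF and IL-3 chains CSF2RB and CSF2RA had 13.4 TPM and 11.0 TPM.

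**Figure D4:**
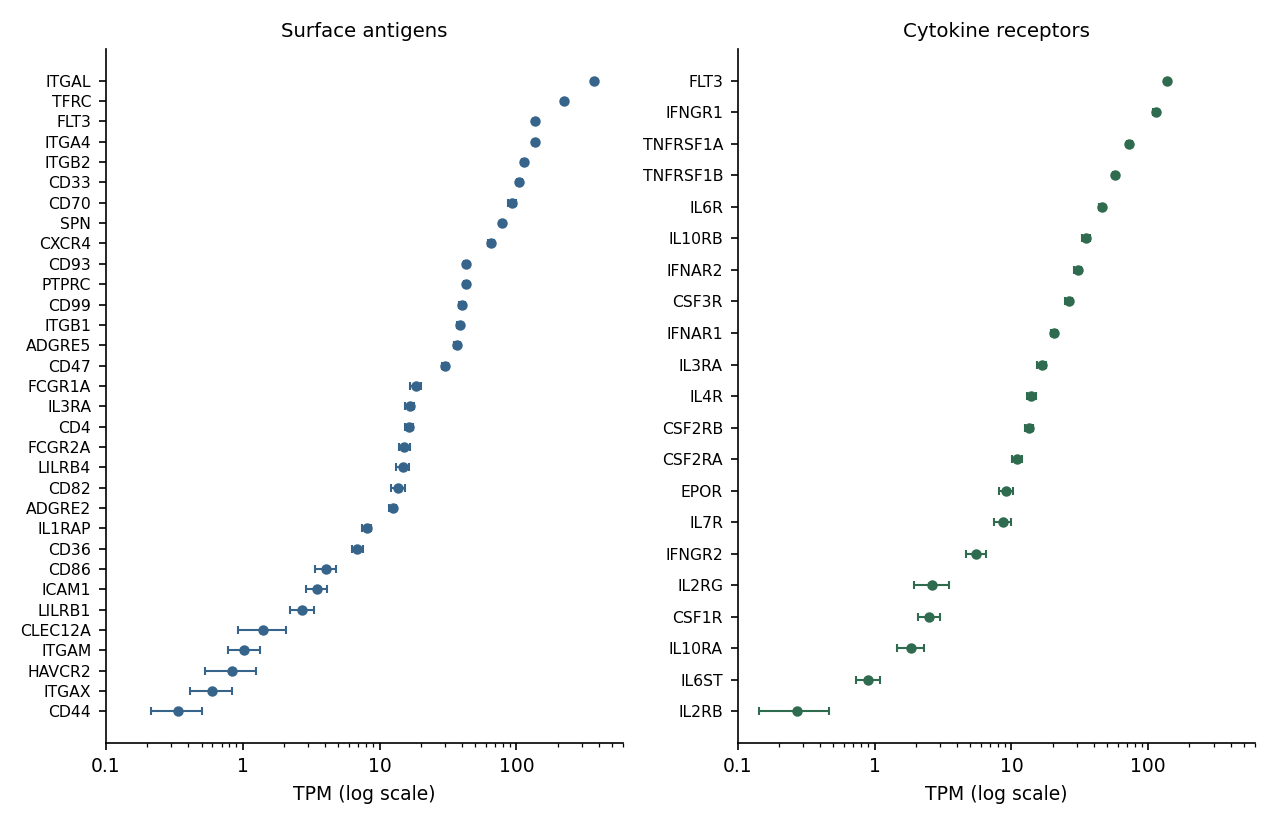
Levels in TPM (horizontal axes, log scale) of 32 kept surface antigen genes (left) and 21 kept cytokine receptor genes (right) in the DMSO library; bars are the 95% Poisson interval of the count. ITGAL at 367 TPM and TFRC at 223 TPM lead the left panel, and FLT3 at 138 TPM the right; genes with fewer than 10 counts, such as CD34 and KIT, are not plotted.

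Antigen presentation was uneven between chains. B2M, the light chain of class I molecules, had 1623 TPM. Of the heavy chains, HLA-B had 77.5 TPM, HLA-E 32.7 TPM and HLA-C 3.47 TPM. The peptide transporter genes were low, with TAP1 at 1.25 TPM and TAP2 at 4.87 TPM. Heavy chain genes are similar to each other and highly variable in sequence, so their counted levels are uncertain. In class II, CD74 (invariant chain) had 149 TPM while HLA-DRA, HLA-DRB1, HLA-DPA1, HLA-DPB1, HLA-DQA1 and HLA-DMB had 0 counts, HLA-DQB1 and HLA-DMA 3 each, and the class II transactivator CIITA 8.

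Metabolic genes were among the most abundant transcripts. The 10 highest genes held 11.4% of TPM, the 100 highest 37.7% and the 1000 highest 67.4%. The 15 mitochondrially encoded genes of the table held 10.7% of TPM and 5.59% of counts, and 85 cytosolic ribosomal protein genes held 17.4% of TPM. MT-CO1 was the highest gene of the library with 18966 TPM, followed by MT-CO3 with 18422 TPM and MT-CO2 with 12938 TPM, the 3 core subunits of cytochrome c oxidase (complex IV). The 13 mitochondrial mRNAs had a median of 5260 TPM and ranged down to MT-ND6 with 1469 TPM, the complex I subunit encoded on the light strand. MT-ATP6 had 9303 TPM and MT-ND4 8023 TPM. The ribosomal protein gene RPL30 had 10120 TPM, and TPT1, an abundant growth-linked protein, had 10124 TPM. Of the exonic length of TPT1, 26.5% is overlapped on the opposite strand.

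Nuclear genes of the respiratory chain were kept at 76 of 80, with a median of 266 TPM. Each of the 4 that were not kept, COX4I2, COX6A2, COX6B2 and COX7A1, is a tissue-restricted form with 0 or 1 counts. All 37 complex I subunits were kept, with a median of 169 TPM and a range from NDUFS5 with 593 TPM to NDUFA3 with 13.7 TPM. The median was 234 TPM for complex II, 298 TPM for complex III and 377 TPM for ATP synthase. Complex IV had the highest median, 484 TPM, with its forms that were not kept set to 0. ATP5F1B, the catalytic beta subunit of ATP synthase, had 1672 TPM, the highest of the list, and COX7C had 1441 TPM. All members of complex III and ATP synthase reached 100 TPM.

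At most glycolytic steps 1 form held nearly all transcripts. Of 35 genes, 25 were kept and 14 reached 100 TPM, and the 10 not kept were mainly forms of other tissues. GAPDH had 5213 TPM and ENO1 3022 TPM, with 23.5% of the exonic length of ENO1 overlapped on the opposite strand. At the entry step HK2 held 93.1% of the hexokinases, 14.1 times HK1 per length (12.2 to 16.3) and 23.3 times without length scaling. ALDOA held 98.2% of the aldolases and ENO1 99.9% of the enolases. PKM had 574 TPM while PKLR, the liver and red cell form, had 0 counts. The glucose transporter SLC2A1 (GLUT1) had 31.5 TPM and SLC2A3 (GLUT3) 22.6 TPM, 1.39-fold apart (1.28 to 1.51).

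Lactate genes were an exception to this pattern. LDHB, the heart-type subunit, had 2122 TPM and LDHA 1240 TPM, so LDHB exceeded LDHA 1.71-fold per length (1.69 to 1.74) and 1.07-fold without length scaling. The lactate carriers SLC16A1 (MCT1) and SLC16A3 (MCT4) had 128 TPM and 116 TPM. Their ratio of 1.10 became 2.29 without length scaling and 2.53 with the longest transcript. Phosphofructokinase was shared between PFKL with 117 TPM and PFKP with 109 TPM, with PFKM at 25.4 TPM. PFKL and PFKP changed order with the gene length used, as did PDK1 and PDK2.

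The pentose phosphate pathway had 7 of 8 genes kept and a median of 91.4 TPM. TALDO1 and PGD, of the nonoxidative and oxidative arms, had 310 TPM and 302 TPM. In the TCA cycle list 28 of 32 were kept, with a median of 86.6 TPM. The cytosolic malate dehydrogenase MDH1 had 465 TPM and the mitochondrial MDH2 278 TPM. SDHD had 290 TPM, CS 235 TPM and FH 160 TPM. The pyruvate dehydrogenase kinases, which brake pyruvate entry, were low, with PDK1 at 11.7 TPM, PDK2 at 10.5 TPM and PDK4 at 0 counts. ME2, the mitochondrial malic enzyme, had 109 TPM, while the cytosolic ME1 had 8 counts. Of 6 genes of gluconeogenesis, 2 were kept, PCK2, the mitochondrial form, with 68.1 TPM and PC (pyruvate carboxylase) with 9.83 TPM. PCK1, FBP2 and G6PC1 had 0 counts.

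Transporter genes led the amino acid list, of which 20 of 22 genes were kept. The glutamine transporter SLC1A5 had 289 TPM, and the pair SLC7A5 and SLC3A2 that import large neutral amino acids had 254 TPM and 201 TPM. ASS1, which makes argininosuccinate from citrulline, had 275 TPM and ASL, the next enzyme, 9.58 TPM. ASNS had 71.8 TPM, and the cystine carrier SLC7A11 6.81 TPM. GLUD2 at 62.4 TPM is a near-identical retrocopy of GLUD1 at 160 TPM, and their reads may be split between them. In the serine and folate list PSAT1 had 353 TPM, PHGDH 191 TPM and PSPH 70.3 TPM.

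Enzymes of the folate cycle differed in whether the mitochondrial or the cytosolic form led. SHMT2, the mitochondrial form, exceeded the cytosolic SHMT1 6.95-fold per length (6.47 to 7.48), with 194 TPM and 27.9 TPM. MTHFD2, the mitochondrial dehydrogenase of proliferating cells, had 413 TPM and made up 99.3% of the pair with MTHFD2L, which is also mitochondrial. The cytosolic MTHFD1 had 148 TPM and the mitochondrial MTHFD1L 96.4 TPM, an order that turned with the longest transcript as length. TYMS had 481 TPM, with 31.5% of its exonic length overlapped on the opposite strand. MAT2A had 436 TPM while the liver form MAT1A had 0 counts. GLDC, which splits glycine, had 2 counts.

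Nearly all lipid genes were kept. All 20 genes of cholesterol synthesis and uptake were kept, with a median of 38.7 TPM, led by FDFT1 (squalene synthase) with 361 TPM and FDPS with 201 TPM. IDI1 had 110 TPM and SQLE, which makes the epoxide of squalene, 76.5 TPM. In the fatty acid list 19 of 21 were kept. SCD, the main desaturase, had 273 TPM and FASN 117 TPM. ACACA, the cytosolic carboxylase for synthesis, held 98.7% of its pair, and CPT1A, which admits fatty acids to mitochondria, had 25.9 TPM and 96.2% of the CPT1 genes.

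Of 27 genes of nucleotide synthesis and cytarabine handling, 24 were kept, with a median of 108 TPM. IMPDH2, the proliferation-linked enzyme of guanine nucleotide synthesis, had 626 TPM, 12.1 times IMPDH1 per length (11.5 to 12.8). The ratio was 7.53 without length scaling and 4.01 with the longest transcript. PAICS had 443 TPM, the ribonucleotide reductase subunit RRM2 237 TPM and RRM1 171 TPM. DHODH, the pyrimidine enzyme of the inner mitochondrial membrane, had 25.6 TPM. CTPS1 had 136 TPM while CTPS2 had 0 counts. Among the genes that set the fate of cytarabine, the carrier SLC29A1 (ENT1) had 172 TPM and the activating kinase DCK 53.7 TPM. SAMHD1, which destroys the active triphosphate, had 1.71 TPM (1.32 to 2.18) and the deaminase CDA had 4 counts.

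**Figure D5:**
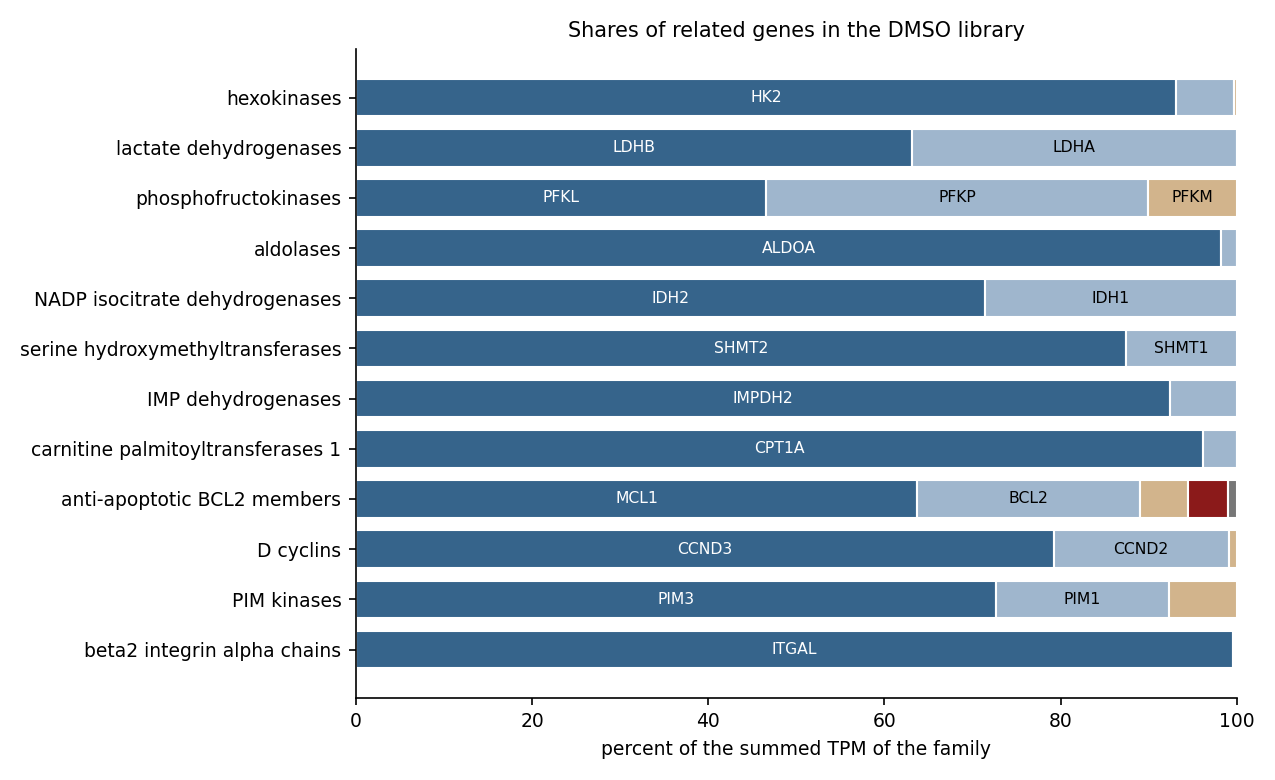
Share of each gene in the summed TPM of its family (horizontal axis, percent) for 12 families of related genes (vertical axis) in the DMSO library; each colored block is 1 gene, and blocks over 8% are named. HK2 with 93.1% and ITGAL with 99.6% dominate their families, while LDHB with 63.1% shares its family with LDHA.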

How the data were processed

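RNA of Molm13 cells was sequenced by the authors from strand-specific mRNA libraries, as 75-base paired reads. Reads were aligned to hg19 (GRCh37) with Rsubread, and the authors deposited raw counts of reads for each gene with each gene's Entrez identifier, exon positions and length. A strand setting for the counting, and the handling of reads shared by similar genes, are not given in the sources used here. The authors' table of comparisons holds fold changes and was not used.

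Of 25702 identifiers, 23696 had a current symbol in RefSeq, and mitochondrial genes were named by position in GENCODE on GRCh37. TPM was computed over genes with 10 or more counts. Intervals are exact: 95% Poisson for a count, 95% Clopper-Pearson for a ratio of 2 counts divided by their lengths. Reads without molecular identifiers are not independent molecules, so these cover counting error only. A gene with 0 counts is given the level that 3 counts would have. Medians of lists set genes that were not kept to 0. The intervals of counts were run on simulated counts drawn from the Poisson distribution that they assume. That checks the computation only and not the spread of real reads. Promoter windows come from the RefSeq table of GRCh38, and the printed stretches were each found at 1 place in GRCh37. MPO and SPI1 have no entry there. Levels, lists and motif shares came from pandas 2.3.3 and scipy 1.17.1, and overlaps of exons from bedtools 2.31.1.

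The 33 lists of 762 genes were written from general knowledge, and they and the markers were chosen with earlier results of these data known. The genes named are the markers, the highest genes, and in each list the highest members and those whose level defines the cell type or family, low ones included. The alternatives were no count minimum, a minimum of 50, no mitochondrial genes in the sum, an effective length (fragment of 200 bases), no length scaling, and the longest GENCODE transcript as length. Some members of the lists are not reported here by name.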

Additional observations from a re-analysis of the deposited data

How the results depend on the processing

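The order of the 6 markers depends on the length used to scale their counts. Without length scaling, in CPM, the values were 272 for FLT3, 129 for SPI1, 87.0 for CD33, 78.5 for HOXA9, 58.1 for MEIS1 and 12.6 for MPO, so FLT3 passed SPI1. With the longest annotated transcript as length they were 235 TPM for SPI1, 179 for FLT3, 95.5 for HOXA9, 46.3 for CD33, 28.6 for MEIS1 and 9.82 for MPO, so HOXA9 passed CD33. An effective length gave 165 TPM for SPI1, 116 for FLT3, 95.4 for CD33, 65.3 for HOXA9, 30.1 for MEIS1 and 6.44 for MPO. Leaving mitochondrial genes out of the sum gave 199 TPM for SPI1, 154 for FLT3, 118 for CD33, 83.0 for HOXA9 and 39.8 for MEIS1. The median of kept genes was 11.6 TPM with no count minimum and 29.1 CPM without length scaling, where the 100 highest genes held 22.1% and mitochondrial genes 5.59%. Of 42 pairs of first and second family members, the order turned in 2 without length scaling and in 6 with the longest transcript, and in none under the effective length. In CPM the log2 ratio was -0.15 for CDK4 to CDK6 and -0.49 for AKT1 to AKT2. With the longest transcript it was -1.17 for AKT1 to AKT2, -0.40 for PFKL to PFKP, -0.90 for PDK1 to PDK2, -0.41 for MTHFD1 to MTHFD1L, -1.07 for ACSL3 to ACSL5 and -0.53 for AZU1 to PRSS57. A further 15 ratios in CPM and 8 with the longest transcript moved by over 1.5 times without turning. Among them, as linear ratios and in that order of settings, IMPDH2 to IMPDH1 went from 12.1 to 7.53 and 4.01, PIK3CD to PIK3CB from 1.56 to 2.62 and 3.03, and SLC16A1 to SLC16A3 from 1.10 to 2.29 and 2.53. SPI1 to SPIB went from 8.13 to 21.5 with the longest transcript alone, and HOXA9 to HOXA10 from 3.66 to 2.37 in CPM alone. The change of length is the construction of both settings. With 1 library, no spread between cultures is known, and no replicate could be left out. No paired analysis was possible because the result comes from no test.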

Other observations

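Some of the highest entries of the table are copies of other genes. RPL13AP5, a transcribed pseudogene of RPL13A on chromosome 10, was the highest nuclear entry with 11410 TPM (89466 counts). MIR1244-1, a microRNA entry of 85 bases on chromosome 5, had 5784 TPM from 5859 counts, and TMSB4XP8 had 2523 TPM beside TMSB4X with 4738 TPM. For TMSB4X, 85.5% of the exonic length is overlapped on the opposite strand, which leaves its level uncertain. How the reads of these entries were divided between copies was not tested.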
